A study of Mus musculus with 6 samples.

Results

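The 5 mouse genes for protamines and transition proteins (Prm1, Prm2, Prm3, Tnp2 and Tnp1) were examined for DNA that stayed wrapped in nucleosomes in sperm. They were taken by name, and all 5 were found among 21887 protein-coding genes. Micrococcal nuclease (MNase) cuts exposed DNA and spares DNA held by a nucleosome, so the sequenced mononucleosome fragments should pile up where histones remain. A peak marks enrichment over the background of its own library, so lack of a peak does not show lack of nucleosomes. The sperm came from the epididymis and vas deferens, in 4 libraries from wild-type C57BL6 mice (WT 1 to 4) and 2 from mice whose protamine 1 carries the K49A change, lysine exchanged for alanine (K49A 1 and 2). Every sample was treated with DNase I, opened with detergent and DTT, and digested with MNase, so the genotype is the labelled difference between the groups. The labels do not give zygosity, age or how many animals stand behind a library, and the permutation p-values below measure only the spread between libraries. Peak lists hold no RNA levels and no allele, so neither the label sperm nor the mutation could be checked against them.

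During the last stage of sperm formation the nucleus exchanges most of its histones, first for transition proteins and then for protamines. Protamines are short, arginine-rich proteins that fold DNA far more tightly than nucleosomes do. Tnp1 and Tnp2 encode the transition proteins, Prm1 and Prm2 the protamines found in mouse sperm chromatin, and Prm3 a small acidic protein encoded beside them. The genes are transcribed in round spermatids and their messages are stored before translation. In ripe sperm they are therefore genes whose period of transcription is over.

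Prm1, Prm2, Prm3 and Tnp2 lie side by side on chromosome 16 within 8889 bp, all on the minus strand (coordinates of GRCm38.p6, the assembly behind mm10). Prm1 (NM_013637.5) spans 10796332 to 10796823, Prm2 (NM_008933.2) 10791377 to 10792105, Prm3 (NM_013638.2) 10790508 to 10790914 and Tnp2 (NM_013694.4) 10787935 to 10788655. The gaps are 4226 bp between Prm1 and Prm2, 462 bp between Prm2 and Prm3 and 1852 bp between Prm3 and Tnp2. Tnp1 (NM_009407.2) stands apart on chromosome 1, from 73015074 to 73015899, also on the minus strand. The genes are short, from 407 bp for Prm3 to 826 bp for Tnp1.

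The 250 bases before each start site are printed because no list had a peak there, and because their CpG content sets the genes beside other promoters. Socs1, the next gene on the Tnp2 side, encodes a suppressor of cytokine signalling and is shown for comparison. The sequences are RefSeq's on GRCm38.p6, read 5′ to 3′ toward the gene, and the capitals mark each CG.
Prm1, chr16:10796824-10797073, minus strand: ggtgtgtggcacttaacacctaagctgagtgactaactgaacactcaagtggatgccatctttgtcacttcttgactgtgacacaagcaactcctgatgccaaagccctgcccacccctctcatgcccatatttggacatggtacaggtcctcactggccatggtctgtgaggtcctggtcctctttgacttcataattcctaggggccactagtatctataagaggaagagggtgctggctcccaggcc
Prm2, chr16:10792106-10792355, minus strand: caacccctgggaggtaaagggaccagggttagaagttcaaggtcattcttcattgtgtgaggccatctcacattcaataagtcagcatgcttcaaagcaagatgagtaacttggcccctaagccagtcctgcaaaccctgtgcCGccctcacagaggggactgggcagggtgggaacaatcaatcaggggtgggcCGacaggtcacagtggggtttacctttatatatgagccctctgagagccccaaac
Prm3, chr16:10790915-10791164, minus strand: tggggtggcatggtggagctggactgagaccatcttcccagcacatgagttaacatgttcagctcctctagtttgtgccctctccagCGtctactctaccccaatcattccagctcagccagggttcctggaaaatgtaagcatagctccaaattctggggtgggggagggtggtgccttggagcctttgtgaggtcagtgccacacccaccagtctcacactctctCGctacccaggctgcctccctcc
Tnp2, chr16:10788656-10788905, minus strand: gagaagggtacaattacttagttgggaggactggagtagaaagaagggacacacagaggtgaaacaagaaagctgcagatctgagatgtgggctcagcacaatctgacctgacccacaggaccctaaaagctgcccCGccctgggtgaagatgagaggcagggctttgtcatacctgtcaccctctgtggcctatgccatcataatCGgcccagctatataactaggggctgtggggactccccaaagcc
Tnp1, chr1:73015900-73016149, minus strand: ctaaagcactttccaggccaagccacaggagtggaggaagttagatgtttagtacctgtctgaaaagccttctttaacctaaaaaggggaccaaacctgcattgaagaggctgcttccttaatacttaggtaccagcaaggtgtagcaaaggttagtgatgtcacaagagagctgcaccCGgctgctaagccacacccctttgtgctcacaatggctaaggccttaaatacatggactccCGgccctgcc
Socs1, chr16:10785537-10785786, minus strand: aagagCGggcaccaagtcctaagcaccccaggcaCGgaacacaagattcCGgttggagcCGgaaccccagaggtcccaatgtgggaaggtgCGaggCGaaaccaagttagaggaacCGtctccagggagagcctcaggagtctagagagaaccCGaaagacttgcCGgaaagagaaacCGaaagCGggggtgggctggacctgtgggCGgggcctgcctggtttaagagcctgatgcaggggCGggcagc
Prm1 has no CG in this stretch. Prm2, Prm3, Tnp2 and Tnp1 have 2 each, and Socs1 has 13.

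No protamine or transition protein gene had a peak within 1 kb of either end in any of the 6 libraries (0 of 5 in each). Of all 21887 protein-coding genes, 28.8, 43.0, 46.3 and 49.9% had such a peak in WT 1 to 4, while 0.429 and 0.334% did in K49A 1 and 2. In K49A so few genes were called that 0 of 5 says little about these genes. A gene without a peak was also common in the series, since 8787 genes (40.1%) had none in any library. Of the 429 genes no longer than Tnp1, 4.66, 10.7, 11.4 and 10.7% had a peak in WT 1 to 4, and 0 had one in either K49A library. Requiring 100 bp of overlap, or taking the whole gene with 1 kb on each side, left the number at 0 of 5.

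Wider margins brought in single genes of WT libraries. Within 2 kb only Tnp1 was reached, in WT 4 alone. All genes reached that margin in 31.8, 47.0, 50.4 and 54.5% of cases in WT 1 to 4, and in 0.576 and 0.512% in K49A. Within 5 kb the genes reached were Tnp1 and Prm1 in WT 2, Tnp1 in WT 3, and Tnp1 and Tnp2 in WT 4. The background at 5 kb was 36.2, 53.0, 56.3 and 61.1% of all genes for WT, and 0.873 and 0.809% for K49A. Within 20 kb all 5 were reached in WT 2, WT 3 and WT 4 (67.7, 69.7 and 74.2% of all genes) and none in WT 1 (49.6%) or in K49A (1.96 and 2.21%). Within 100 kb WT 1 reached the 4 genes of the cluster (75.8% of all genes) and the other WT libraries all 5 (85.9, 86.4 and 88.4%). No gene of the 5 was reached in K49A within 100 kb, where 5.87 and 6.87% of all genes were.

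The nearest peaks to the chromosome 16 cluster were closer in every WT library than in either K49A library, as they were for the median protein-coding gene. The median gene was 18.6, 0.091, 0.0 and 0.0 kb from a peak in WT 1 to 4. For K49A 1 and 2 it was 1760 and 1300 kb from one, so the order was not particular to the cluster. From the edge of the cluster, the gap was 38367, 4544, 5043 and 2462 bp for WT 1 to 4. For K49A 1 and 2 it was 178153 and 178149 bp. The groups did not overlap, and WT 1, the shortest WT list with 11313 peaks, was the farthest of the WT libraries. On the scale log2(distance in bp + 1) the mean was 12.74 ± 1.72 in WT (SD, n = 4) and 17.44 in K49A (n = 2), a difference of 4.71 ± 0.86 (SE). The exact permutation test gave a two-sided p of 0.133, the smallest that 4 against 2 libraries allow.

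Prm1, the mutated gene, encodes protamine 1. Its nearest peak was 38367, 4544, 5043 and 10859 bp away in WT 1 to 4. In WT 1 to 3 that peak lay upstream of the gene and in WT 4 downstream, beyond Tnp2. Prm2, which encodes a protamine made as a longer precursor, had its nearest peak 43085, 9262, 9761 and 5904 bp away. For Prm3 the distances were 44276, 10453, 10952 and 5035 bp. Tnp2, which encodes transition protein 2, had 46535, 12712, 13211 and 2462 bp. The order within the cluster thus changed with the side of the nearest peak: Prm1 was closest in WT 1, 2 and 3, and Tnp2 in WT 4. In K49A, distances of the 4 genes ranged from 178149 bp for Prm1 to 186321 bp for Tnp2, all to the same region.

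**Figure D1:**
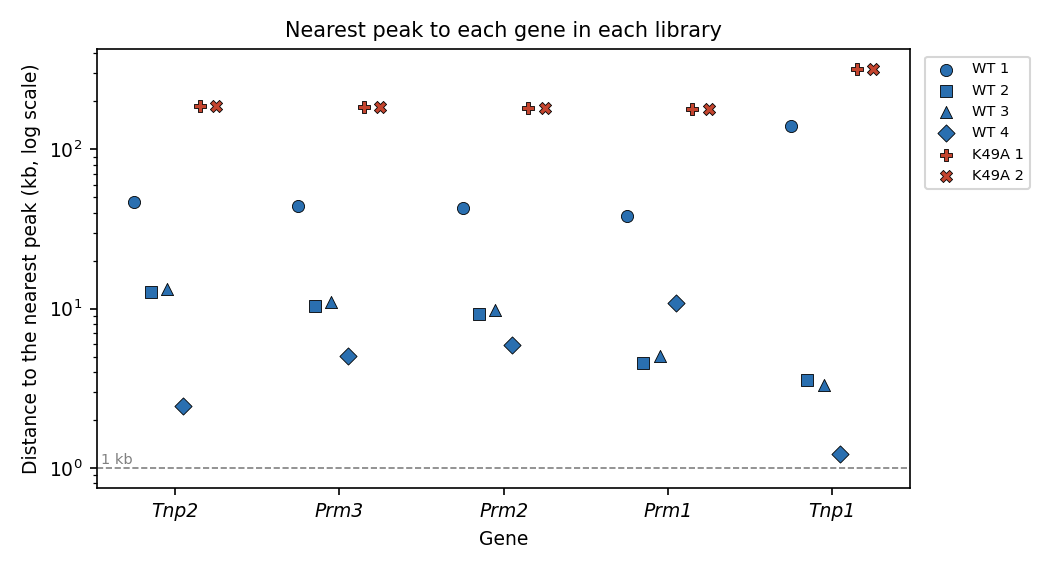
Distance in kb (log scale) from each gene to its nearest peak, with 1 point per library: WT in blue, K49A in red. No point lies at or under the dashed 1 kb line; the closest is Tnp1 in WT 4 at 1219 bp, and both K49A points lie above all WT points for every gene.

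Peaks inside the 100 kb margins of the cluster were fewer than at the median gene in each WT library, and most ranked low in their own list. There were 1, 1, 3 and 3 in WT 1 to 4 and 0 in each K49A library, where the median protein-coding gene had 2, 3, 4 and 5 in WT and 0 in K49A (exact permutation test between genotypes, two-sided p = 0.133). They covered 209, 818, 1088 and 1478 bp in WT 1 to 4. In WT 1 to 4, 45.7, 25.5, 49.2 and 39.1% of genes had as many peaks or fewer. For each gene the window was the whole gene with 100 kb on each side, so it was wider for longer genes. In K49A, 94.1 and 93.0% of genes had no peak that near, so the empty K49A windows did not set the cluster apart.

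The peaks near the cluster merged into 5 regions, of which 2 were found in more than 1 library. The first of these began 4544 bp upstream of Prm1 (10801367 to 10802184). WT 2 had a peak of 818 bp there, with a fold enrichment over local background of 2.51 and a −log10 q of 1.51. WT 3 had a peak of 246 bp (10801866 to 10802111), with a fold of 2.46 and a −log10 q of 1.73. The WT 2 peak overlapped the pseudogene Gm10343, and the WT 3 peak lay just beyond it. Each fold, p and q is the value of the authors' caller for that peak and places it within its own list. Where such values are set side by side between libraries below, the depth of the libraries is unknown. By −log10 q, 17.9% of the WT 2 list and 26.3% of the WT 3 list ranked at or below these peaks.

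The other shared region covered the low end of Rmi2 (10835059 to 10843235), which encodes a subunit of the complex that works with the Bloom helicase, 38168 bp from Prm1. Its fold was 2.96 in WT 1, 4.50 in WT 3 and 2.96 in WT 4, and WT 2 had no peak there. In WT 3 it ranked above most of the list (98.0% at or below it, −log10 q of 6.08). In WT 1 it was near the bottom (9.92%, −log10 q of 1.26).

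The remaining peaks each came from 1 library. WT 4 had a peak over the start-proximal part of Socs1 (10784741 to 10785473, fold 2.41), the closest of all to the cluster, 2462 bp below Tnp2. WT 3 had a peak outside genes 24523 bp below the cluster (10763008 to 10763412, fold 2.95), and WT 4 had a peak outside genes 25641 bp above it (10822464 to 10822828, fold 2.74). Clec16a, a gene involved in mitophagy whose finish is 43057 bp from Tnp2, had a peak at an end in WT 3 and WT 4, at its far end outside the 100 kb margin. In all 6 lists together the stretch from 10785474 to 10801366, 15893 bp with all 4 genes inside, held no peak.

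**Figure D2:**
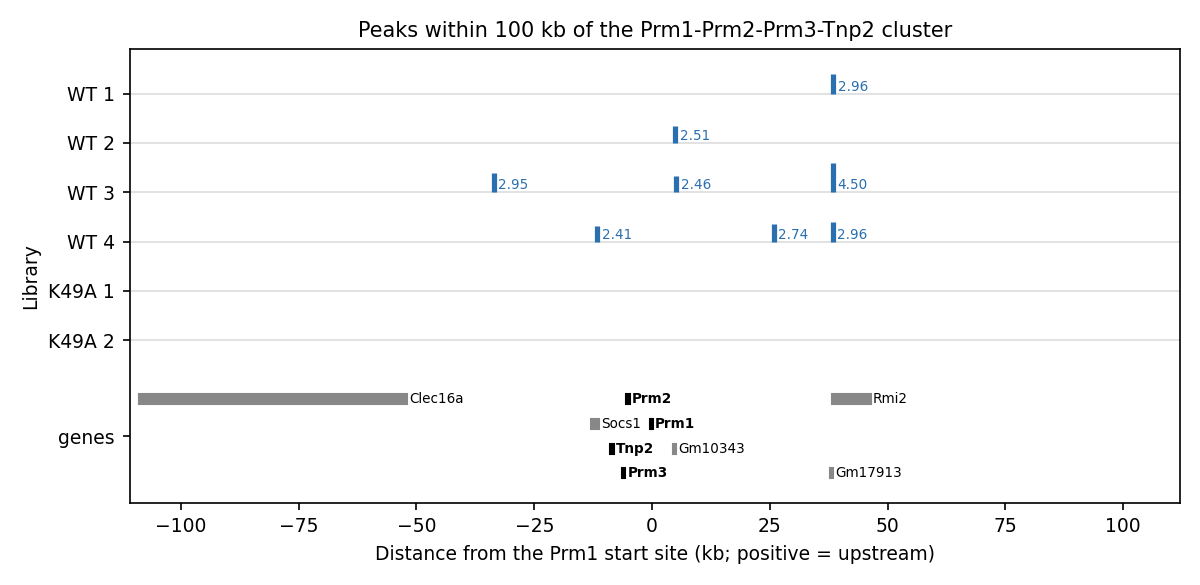
Peaks within 100 kb of the chromosome 16 cluster by distance from the Prm1 start site in kb, 1 row per library (WT blue, K49A red rows empty); bar height and the printed value are the authors' fold, and boxes below are genes, with the protamine and transition protein genes in black. The 8 WT peaks flank the 4 genes without reaching them.

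The K49A gap around the cluster ended at a region that all lists shared. The nearest K49A peak lay in Litaf (10959273 to 10993121), which encodes an endosomal membrane protein. It spanned 10974972 to 10975307 in K49A 2. A peak was called there in all 6 libraries, with folds of 22.5, 23.3, 23.7 and 21.2 for WT 1 to 4. The folds for K49A 1 and 2 were 21.4 and 21.0. Since this region is close on the K49A scale, the cluster was nearer to a K49A peak than most genes were: 90.7 and 88.9% of genes were at least as far from one as Prm1 was in K49A 1 and 2. For WT 1 to 4 the shares at Prm1 were 39.9, 43.5, 40.1 and 30.2%.

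Tnp1 encodes transition protein 1, and its peaks followed the same order between genotypes, as did those of the median gene. The closest peak to Tnp1 was 140438, 3565, 3297 and 1219 bp away for WT 1 to 4. For K49A 1 and 2 it was 318536 and 318457 bp away. The groups did not overlap, and WT 1 lay between the other WT libraries and K49A. On the log2 scale the mean was 12.71 ± 3.01 in WT (SD, n = 4) and 18.28 in K49A (n = 2), a difference of 5.57 ± 1.51 (SE; exact permutation test, two-sided p = 0.133). The WT 4 peak (73013560 to 73013855, fold 2.49, −log10 q of 1.30) lay downstream of the gene, just past the 1 kb margin.

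WT 2 and WT 3 shared a region 3297 bp upstream of Tnp1 (73019196 to 73019755), inside the long noncoding gene 1700027A15Rik, which starts 137 bp from Tnp1 on the other strand. The fold there was 2.45 in WT 2 and 2.35 in WT 3, with a −log10 q of 1.73 and 1.38. WT 2 had another peak in the same noncoding gene (73022417 to 73022891, fold 2.21) and a peak outside genes (73028474 to 73028985, fold 2.28). These were among the weakest calls of the WT 2 list, with 0.547 and 0.0782% of it at or below them. This region and the one that began 4544 bp upstream of Prm1 were both found in WT 2 and WT 3, while the other recurring region, at Rmi2, was found in WT 1, WT 3 and WT 4.

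Within 100 kb of Tnp1 there were 0, 3, 3 and 4 peaks in WT 1 to 4 and 0 in both K49A libraries. The groups overlapped because WT 1 had none (exact permutation test, two-sided p = 0.4). As many peaks or fewer lay within 100 kb of 24.1, 53.6, 49.2 and 49.8% of all genes in WT 1 to 4. In K49A 1 and 2, 94.1 and 93.0% of genes had no peak that near, so the empty windows did not set Tnp1 apart. Without WT 1 the mean WT number was 3.33 and the groups no longer overlapped (p = 0.2, exact permutation test, the smallest for 3 against 2). The 10 peaks merged into 9 regions, 8 of them from 1 library. No other protein-coding gene lies within 100 kb of Tnp1. The stretch free of peaks in all 6 lists was 5340 bp long, from 73013856 to 73019195. In WT 1 the nearest peak was in Igfbp5, which encodes a binding protein of insulin-like growth factors.

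**Figure D3:**
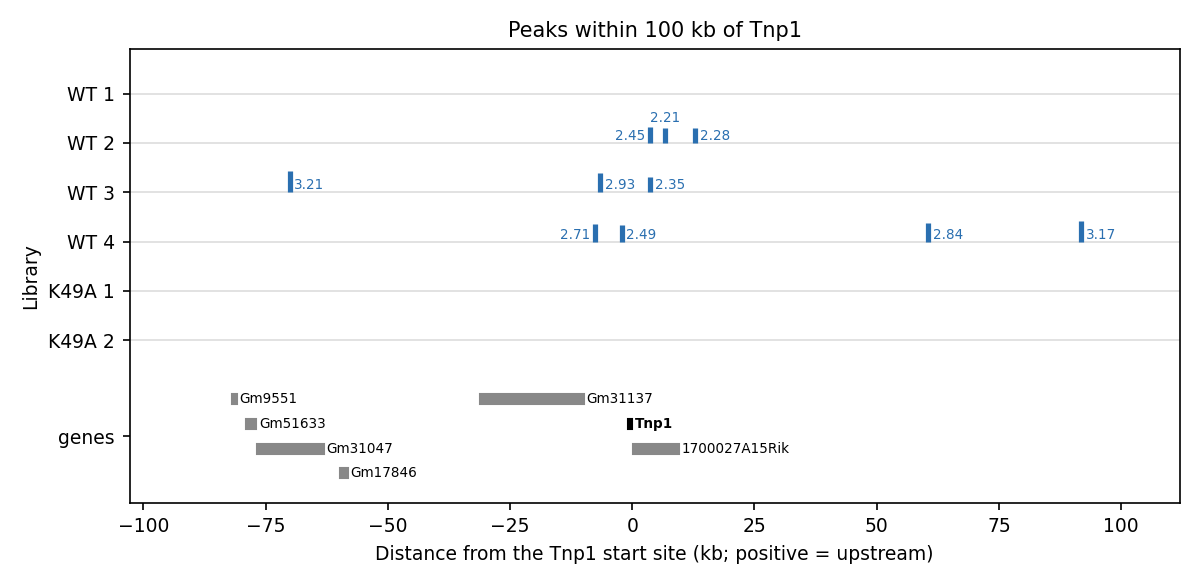
Peaks within 100 kb of Tnp1 by distance from its start site in kb, 1 row per library; bar height and the printed value are the authors' fold, and boxes below are genes, with Tnp1 in black. WT 2, 3 and 4 have 3, 3 and 4 peaks, and WT 1 and both K49A rows are empty.

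The nearest K49A region to Tnp1 was in Ankar, a gene for an ankyrin and armadillo repeat protein (72642980 to 72700584), and it spanned 72696337 to 72696617 in K49A 2. Peaks overlapping it were called in K49A 1 and 2 with folds of 4.04 and 4.03. They were also called in WT 1, 2 and 3 with folds of 5.17, 3.98 and 4.04, and not in WT 4. In K49A 1 and 2, 85.1 and 82.1% of genes were at least as far from a K49A peak as Tnp1 was.

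Most WT peaks near the 5 genes had a weaker p than any peak listed in K49A. The lowest −log10 p of any K49A peak was 4.55, and 5 of the 18 WT peaks within 100 kb of either locus reached it. In the whole WT lists 71.6, 60.9, 63.6 and 57.9% of peaks did, in WT 1 to 4. Of the 18 peaks, 14 ranked under the median −log10 q of their own list, and the folds ran from 2.21 to 4.50. Once peaks with a −log10 p under 5 were dropped from all lists, the mean number within 100 kb was 0.5 per WT library at each locus, and WT overlapped K49A (two-sided p = 0.8 for both, exact permutation test).

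With the 700 strongest peaks of each list the difference between genotypes was small at the cluster and turned at Tnp1. At the cluster, the Litaf region was then the nearest in all libraries but WT 3, with distances of 178147, 178147, 38202 and 178149 bp in WT 1 to 4 and 178153 and 178149 bp in K49A. The log2 difference there was 0.56 (exact permutation test, two-sided p = 0.267). At Tnp1, the distances were 318474, 318510, 5950780 and 361046 bp in WT and 318536 and 318457 bp in K49A. The log2 difference was -1.10, with K49A closer (exact permutation test, two-sided p = 0.533), and WT 3 was the farthest. The larger WT number of weak peaks and the shorter distance to the genes moved together. Their link was not tested, and depth is unknown because the lists carry no read counts.

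The start sites of these genes were poor in CpG. In the window from 250 bases before to 50 after the start, Prm1 had 1 CpG, Prm2 3, Prm3 4, Tnp2 4 and Tnp1 6, where the median of 21263 promoters of protein-coding genes was 13. The GC content was not low, at 52.7% for Prm1, 54.0% for Prm2, 57.0% for Prm3, 56.0% for Tnp2 and 50.7% for Tnp1, against a median of 56.3%. The ratio of observed to expected CpG was 0.05, 0.14, 0.16, 0.17 and 0.31 in the same order, against a median of 0.57. Prm1 was thus among the CpG-poorest, since 11.4% of promoters had no more than its count. The other genes were less extreme, with shares of 23.9% for Prm2, 28.4% for Prm3 and for Tnp2, and 35.7% for Tnp1. Socs1 had 18 CpG and a ratio of 0.61, and a peak within 1 kb of its start in WT 4.

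Across all promoters, a peak within 1 kb of the start was found in 29.0, 42.5, 45.8 and 49.1% in WT 1 to 4 and in 0.287 and 0.216% in K49A. In each WT library the share was higher in each class with more CpG. Among 6035 promoters with 0 to 4 CpG, as in Prm1, Prm2, Prm3 and Tnp2, it was 6.21 ± 2.05% (SD, n = 4). With 5 to 9 CpG, as in Tnp1, it was 21.0 ± 5.97% (SD, n = 4, 3161 promoters). With 30 or more it was 83.3 ± 9.26% (SD, n = 4, 3283 promoters). In K49A the mean share was between 0.142 and 0.282% in all 6 classes of CpG count. The 5 genes thus fell in the CpG classes with the lowest shares of called promoters in WT.

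**Figure D4:**
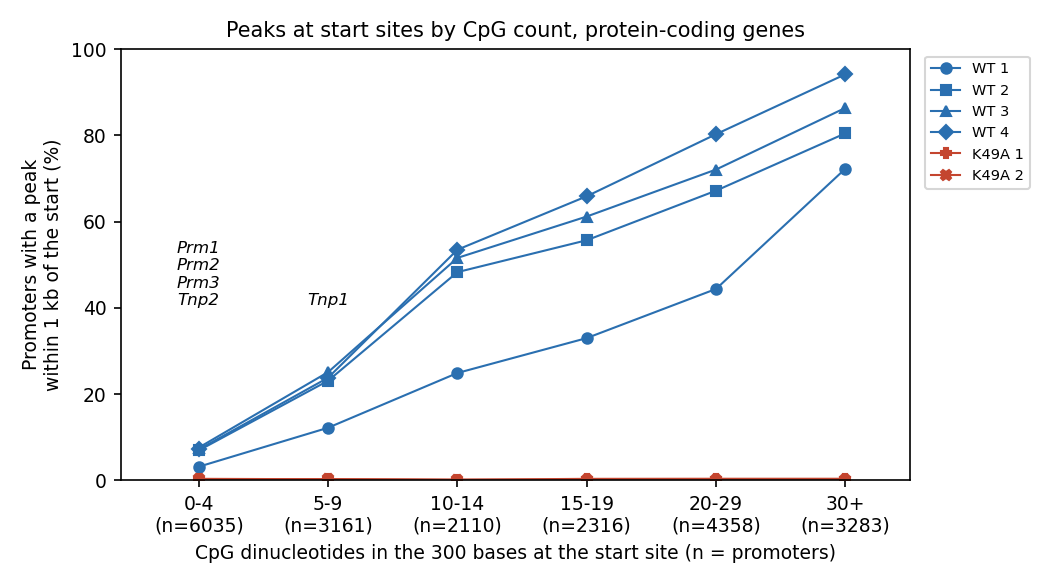
Percent of promoters with a peak within 1 kb of the start site, by the number of CpG in the 300 bases around it, with 1 line per library (WT blue, K49A red); gene names mark the classes of the 5 genes and their height has no meaning. The WT lines lie at 3.16 to 7.59% in the lowest class and at 72.3 to 94.2% in the highest, and the K49A lines stay under 0.4%.

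Start-site motifs were searched on both strands of the same windows. The cyclic AMP response element TGACGTCA, through which CREM acts in spermatids, was in none of the 5 and in 2.23% of all promoters. Its variants TGACTTCA, in Prm1 (1.25% of promoters), and TGATGTCA, in Tnp1 (3.66%), were added after the sequences were seen. The TATA-type motif TATAAA was in Prm2 and in 12.6% of promoters. Variants of this motif were not searched, so other TATA-like stretches in the 5 genes were not counted. These matches describe letters and not bound sites.

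Genes that act on protamines or on the exchange of histones had peaks in WT. The exchange list held 20 genes, of which 19 were matched by symbol: factors of histone removal, chaperones and testis histone variants. A peak at an end was found for 11, 12, 15 and 14 of the 19 in WT 1 to 4 (57.9, 63.2, 78.9 and 73.7%), each above the share of all genes given above. In K49A it was 0 of 19 in both libraries, where 0.429 and 0.334% of all genes were called. In all, 9 were called by every WT library and by no K49A library (21.8% of all genes were). The WT mean was 68.4 ± 9.61% (SD, n = 4), and the groups did not overlap (exact permutation test, two-sided p = 0.133).

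Among the 9 were Rnf8, a ubiquitin ligase, with a fold of 3.44 ± 0.501, and Psme4, a proteasome activator that acts on acetylated histones, with 3.58 ± 0.741 (SD, n = 4 each). Epc1 (3.45 ± 0.374) and Phf7 (3.00 ± 0.354) encode a subunit of an acetyltransferase complex and a histone ubiquitin ligase, and Hspa4l (3.24 ± 0.601) and Tssk6 (2.65 ± 0.232) a heat shock protein and a spermatid kinase (fold, SD, n = 4 each). H1f7, a spermatid linker histone, had 2.57 ± 0.162, and the testis histones H2ac1 and H2bc1, which neighbour each other, shared 2.71 ± 0.129 (SD, n = 4). The 3 without a peak at either outer end of the gene in any library were Kat5, an acetyltransferase, Usp7, a deubiquitinase, and H3f3b, a gene for histone H3.3. Their start sites in the promoter table lie inside the annotated span, and a peak within 1 kb of that start was found in 1 WT library for Kat5 and in all 4 for Usp7 and H3f3b. For the protamine and transition protein genes the start is the outer end, and 0 of 5 had a peak there by either measure.

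The regulator list held 19 genes for the transcription, message handling or modification of protamine and transition protein products. Of these 8, 11, 12 and 14 were called in WT 1 to 4 (42.1, 57.9, 63.2 and 73.7%), beside 28.8, 43.0, 46.3 and 49.9% of all genes. In K49A 0 were called, where 0.429 and 0.334% of all genes were. The WT mean was 59.2 ± 13.2% (SD, n = 4), with no overlap between genotypes (two-sided p = 0.133, exact permutation test). Of the 19, 5 were called by every WT library and by no K49A library (21.8% of all genes were). They included Crem, the activator of spermatid genes (fold 3.00 ± 0.418), and its partner Fhl5 (2.83 ± 0.201). The others were Ybx2, which stores spermatid messages (3.33 ± 0.866), Srpk1, a kinase that acts on protamine 1 (3.35 ± 0.427), and Kif17, a kinesin (3.02 ± 0.475; fold, SD, n = 4 each). Gtf2a1l, Tarbp2, Dazap1, Camk4 and Ppp1cc had no peak at an outer end of the gene in any library. At the start site of the promoter table, Dazap1 had a peak in 3 WT libraries and Gtf2a1l, Tarbp2 and Ppp1cc in 1 each.

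With 700 peaks per list the WT means were 1.32% for the exchange list and 2.63% for the regulator list, beside 0% in K49A. The share of all genes was not computed at this setting, so these values have no background to be read against. The promoters of the lists were richer in CpG than those of the 5 genes. The median was 23.5 for 18 exchange genes and 29.5 for 16 regulator genes, against 4 for the protamine and transition protein genes. The highest count was taken where a gene has several starts. Over all promoters, each counted on its own, the median was 13. With 20 to 29 CpG, 66.0 ± 15.4% of promoters had a peak within 1 kb of the start in WT (SD, n = 4). Whether the lists differ from promoters of like CpG count was not tested. Single genes can depart from their class, since 6.21% of promoters with 0 to 4 CpG had a peak in WT. The examples here were picked after their values were seen and do not bear on the 5 genes. H2al2a, a short testis histone gene with 0 CpG, had a peak within 1 kb of its start in 3 WT libraries, and Fhl5, with 3, in 4. Ppp1cc, with 42, had a peak within 1 kb of its start in 1 WT library. Whether the 5 genes differ from other CpG-poor genes was not tested.

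**Figure D5:**
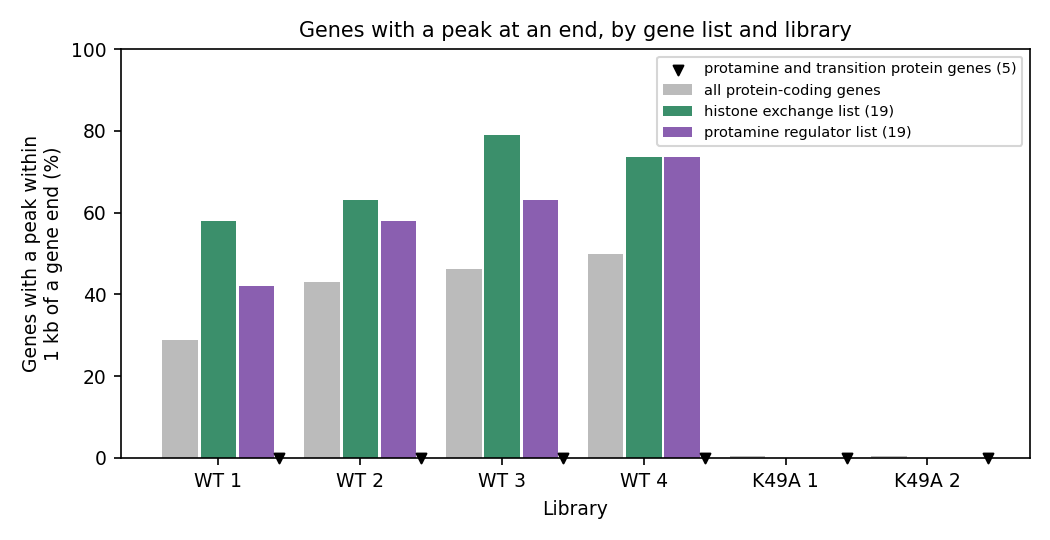
Percent of genes with a peak within 1 kb of an end in each library, for all protein-coding genes (grey), the exchange list (green) and the regulator list (purple); black triangles mark 0 of 5 protamine and transition protein genes. Both lists stand above the grey bar in WT 1 to 4, and no listed gene was called in K49A.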

How the data were processed

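MNase-seq of mouse sperm gave 6 libraries, 4 WT and 2 K49A, grouped and numbered from the sample titles. The authors deposited 1 list of broad peaks per library. FastQC, BWA, Picard, SAMtools and MACS2 on mm10 were used, per the submitters' processing notes; their versions and settings, and whether an input control was used, are not stated there. The deposited lists give every peak's fold enrichment over background, which is a ratio, together with its p and q as −log10 values. The score deposited by the authors was not used. The lists hold 11313, 20458, 22237 and 27903 peaks in WT 1 to 4 and 700 and 1017 in K49A. They carry no read counts, so depth is unknown and no interval for counting error can be given.

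Starts were made 1-based. Genes came from a RefSeq table for GRCm38.p6 (chromosomes 1 to 19, X and Y), and promoter windows and strand from a RefSeq table of the same assembly, which held 17492 protein-coding genes. A gene was called if a peak overlapped the 1 kb either side of an end by at least 1 bp. Distances run between the nearer edges of peak and gene. Groups were compared by the two-sided exact permutation test over 15 splits (numpy 2.4.6, pandas 2.3.3, figures with matplotlib 3.10.9), and no test was made per gene. Functions were tested on simulated peaks. Protein sequences were not used here.

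The 5 genes, the lists and the tests were chosen with earlier results of these data known. Named genes were the 5, the protein-coding genes within 100 kb, and list genes called in all 4 WT libraries, in any K49A library or in none; other genes named hold a nearest peak or illustrate CpG content and were chosen after their values were seen. H1f9 was not matched by symbol. Alternatives were a stricter p or q, 700 peaks per list, other margins and overlaps, each library left out, and pairing by replicate number.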

Additional observations from a re-analysis of the deposited data

Results flagged for a closer look

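In bp, WT 1 stood apart from the other WT libraries in its distance to the nearest peak, by a gap large for 4 libraries. This held for Tnp1 (140438 bp), for the edge of the chromosome 16 cluster (38367 bp), for Prm2 (43085 bp) and for Prm3 (44276 bp). On the log2 scale no WT library stood apart in this way. Chance marks about 1 in 20 such groups, and the 4 genes of the cluster share their nearest peak. WT 1 has the shortest WT list (11313 peaks), and its part in these distances was not tested.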

How the results depend on the processing

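Of 85 recomputed values over 7 results, 81 kept their direction or, for the number of the 5 genes called, stayed at 0. That number has no direction and made up 13 of the 85 values, of which 11 stayed at 0. With 700 peaks per list, the Tnp1 distance turned to -1.10 on the log2 scale (main 5.57) and the Tnp1 peak number to a difference of 0 (main -2.5). At this setting no WT list kept a peak within 100 kb of Tnp1. WT 1, 2 and 4 then lay at 318474, 318510 and 361046 bp, beside 318536 and 318457 bp in K49A 1 and 2. WT 3 was much farther, at 5950780 bp. The number of the 5 genes with a peak at an end went from 0 to 1 with a margin of 2 kb and to 3 with 5 kb. No p was below 0.05 at any setting, since the design cannot reach it. Leaving out each library in turn gave log2 differences of 4.22 to 5.54 at the cluster and 4.75 to 7.03 at Tnp1. Peak numbers within 100 kb then differed by -1.67 to -2.33 and by -2.0 to -3.33, and list shares by -64.9 to -71.9 and -54.4 to -64.9 percentage points. Without peaks whose −log10 p was under 5, the log2 differences were 1.11 and 1.19, and the list differences -35.5 and -36.8 percentage points. The share of all genes was not computed for that stricter p. Replicate numbers 1 and 2 occur in both genotypes, but no label says that they mark shared animals. Pairing by them leaves 2 pairs, for which the exact sign-flip test cannot give a p under 0.5. With the replicate block the log2 differences were 3.75 at the cluster and 3.83 at Tnp1, and the peak numbers differed by -1.0 and -1.5 (exact sign-flip test, p = 0.5, 0.5, 0.5 and 1.0).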
